A study of Rattus norvegicus with 111 samples.

Results

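The livers of 4 pregnant rats dosed with 3 mg/kg/d PFO5DoA were compared with those of 5 pregnant rats given 0 mg/kg/d, as 9 maternal libraries out of 111 libraries in the whole study. PFO5DoA is a perfluoroalkyl ether acid, in which a fluorinated carbon chain is interrupted by oxygen atoms and ends in a carboxylic acid. PFO4DA is its shorter homologue, with one repeating difluoromethoxy unit fewer. Perfluoroalkyl acids as a class are known in rodents to accumulate in the liver and to activate the nuclear receptor PPAR alpha, which raises the transcription of genes for fatty acid uptake and oxidation. The maternal liver in late pregnancy also supplies lipid and glucose for the fetuses.

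The study used time-mated Sprague-Dawley rats of about 11 to 12 weeks of age, with no genetic modification given in the labels. Every dam received its chemical by mouth from gestational day 18 to 22, and dams and fetuses were killed 2 to 4 hours after the last dose. All groups, the controls included, received the vehicle 0.5% Tween-80. The groups used here were maternal PFO5DoA at 3 mg/kg/d (4 dams) and 0 mg/kg/d (5 dams), fetal liver from the same 9 litters, maternal PFO5DoA at 0.3 and 1 (3 dams each) and at 10 and 30 mg/kg/d (4 each), and maternal PFO4DA at 0.3, 1, 3, 10, 30 and 62.5 mg/kg/d (4 each) with 6 PFO4DA controls of its own. The labels do not say how many fetuses gave a fetal sample. At 30 mg/kg/d PFO5DoA the submitters recorded lower body weights of the dams than in controls. RNA was measured by TempO-Seq, a targeted assay in which probe pairs are ligated on each transcript and counted by sequencing.

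The deposited columns carry the dam's number but not the life stage, so the maternal libraries were chosen by a measured value. Of a dam's 2 columns, the one with the higher Pearson correlation of log2(CPM + 1), where CPM are counts per 1000000 counts of a library, with the only column of dam 2286, which is labelled maternal, was taken as maternal. Dam 2286 received 30 mg/kg/d PFO5DoA. Over the 9 dams the columns taken as maternal had r from 0.943 to 0.982 and the columns taken as fetal had r from 0.8716 to 0.917. The narrowest margin between a dam's 2 columns was 0.0524, in dam 2282 at 3 mg/kg/d. Because these correlations chose the libraries, the difference between maternal and fetal liver is itself not tested. Each choice was made between the 2 columns of 1 dam, which share a dose, but the correlation itself was 0.9694 to 0.982 in the maternal columns at 3 mg/kg/d, against 0.943 to 0.9728 at 0 mg/kg/d.

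**Figure D1:**
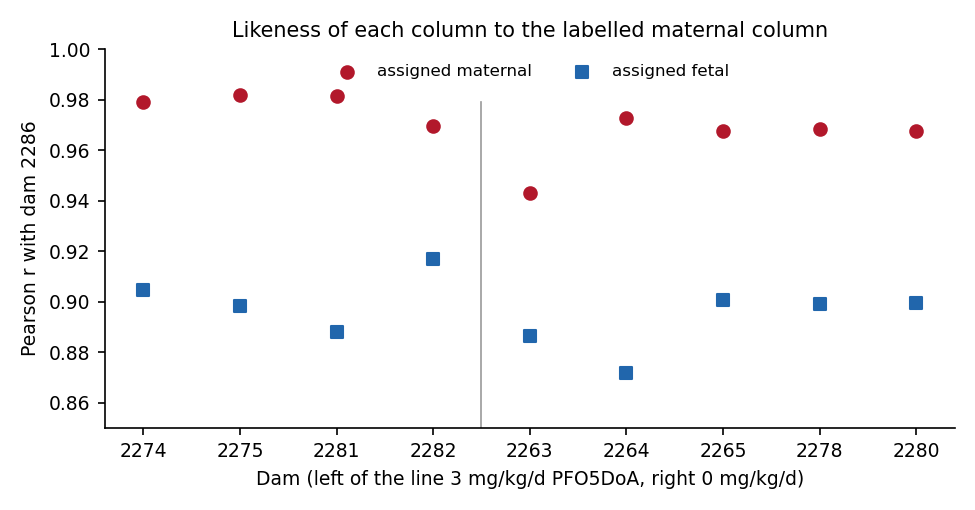
Pearson correlation (y axis, no unit) of each column with the labelled maternal column of dam 2286 (30 mg/kg/d PFO5DoA), for the 9 dams compared (x axis; 3 mg/kg/d on the left, 0 mg/kg/d on the right); circles are the columns taken as maternal and squares those taken as fetal. The 9 circles lie between 0.943 and 0.982, above all 9 squares, and the lowest circle is control dam 2263.

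One control library stood apart. The maternal library of dam 2263, a control, had a mean correlation of 0.921 with the other 8 maternal libraries, where each of those 8 had 0.94 to 0.958. The 200 genes with the largest maternal over fetal ratio in the PFO4DA controls (at 10 CPM or more in maternal liver) took 19.8 to 24.4% of counts at 3 mg/kg/d and 15.3% in dam 2263, with 19.7 to 26.4% in the other 4 controls. The 200 genes with the largest ratio the other way took 0.157 to 0.487% of counts at 3 mg/kg/d and 0.172 to 0.332% in controls, against 17.7 to 29.1% in the fetal libraries of the same dams. The highest of the 3 mg/kg/d values, 0.487%, was in dam 2282, which also had the fewest counts. The part of these differences in the results was not tested. Library totals ranged from 7133025 to 13095096 counts. The control dam 2279 was left out, since its fetal column held only 45504 counts; its maternal column held 10318254 counts and had r = 0.9695. Genes carry Ensembl IDs, and a gene symbol could be found for 0 of the 20311, so liver markers and pathway genes could not be looked up. Only 2 rising and 2 falling genes are given, by ID. The tissue label was therefore not checked against named markers.

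Dosing at 3 mg/kg/d changed 281 of 10615 genes tested in maternal liver (2.65%). Of these, 192 rose (1.81% of genes tested) and 89 fell (0.838%). The median log2 fold change was 1.28 for the rises, with an interquartile range from 0.89 to 2.18, and -1 for the falls, with an interquartile range from -1.23 to -0.78, while the median over all genes tested was -0.02. In all, 55 rises and 7 falls at least 4-fold, and 26 rises and 3 falls at least 8-fold. Calls rest on the quasi-likelihood test of edgeR, with p-values adjusted over all genes (Benjamini-Hochberg) and a threshold of 0.05; the unadjusted p was under 0.05 for 1742 genes. These are bulk samples, in which fewer cells of a type and less RNA per cell cannot be told apart.

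**Figure D2:**
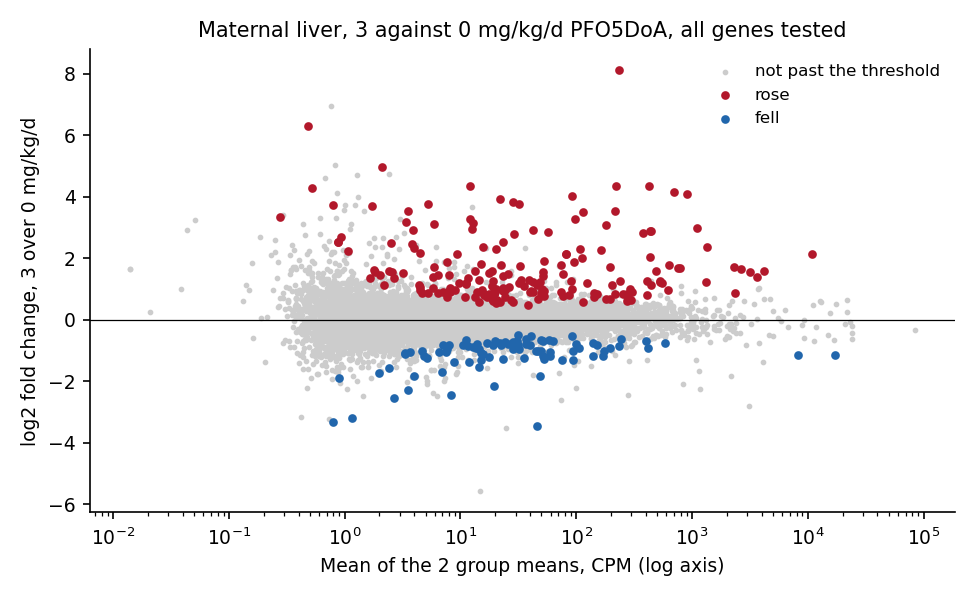
Log2 fold change at 3 over 0 mg/kg/d (y axis) against the mean of both group means in CPM (log x axis) for the 10615 genes tested in maternal liver; each point is a gene, red where it rose, blue where it fell and grey where it did not pass the threshold. The 192 red points reach 8.11 and the 89 blue points reach -3.46.

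The called genes included highly expressed ones. The summed level of the 192 rises was 78600 ± 13500 CPM at 3 mg/kg/d (SD, n = 4) and 24100 ± 4340 CPM in controls (SD, n = 5). Single dams had 75360 (dam 2274), 75560 (2275), 97750 (2281) and 65840 CPM (2282) at 3 mg/kg/d, against 16710 (2263), 26330 (2264), 25640 (2265), 27790 (2278) and 24250 CPM (2280) at 0 mg/kg/d. The groups do not overlap, dam 2281 being highest among the dosed and dam 2263 lowest among the controls. The 89 falls summed to 19400 ± 1480 CPM at 3 mg/kg/d (SD, n = 4) and 41800 ± 5430 CPM in controls (SD, n = 5). These sums are descriptions, because the same libraries chose the genes. A mean of 1000 CPM or more in either group was reached by 14 rises and 2 falls, 5.69% of the called genes, against 1.28% of all genes tested. A rise could reach that level through the dosed group alone, as some of the 14 did. These shares are therefore descriptions, and nothing is read from their difference. The most abundant rise averaged 17800 CPM at 3 mg/kg/d and 4000 CPM in controls, a 4.45-fold change in the fit. Among those 14, the largest change was 18-fold, with 1340 CPM at 3 mg/kg/d and 74.3 CPM in controls. The 2 abundant falls averaged 10800 and 5150 CPM at 3 mg/kg/d, against 23800 and 11500 CPM in controls.

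**Figure D3:**
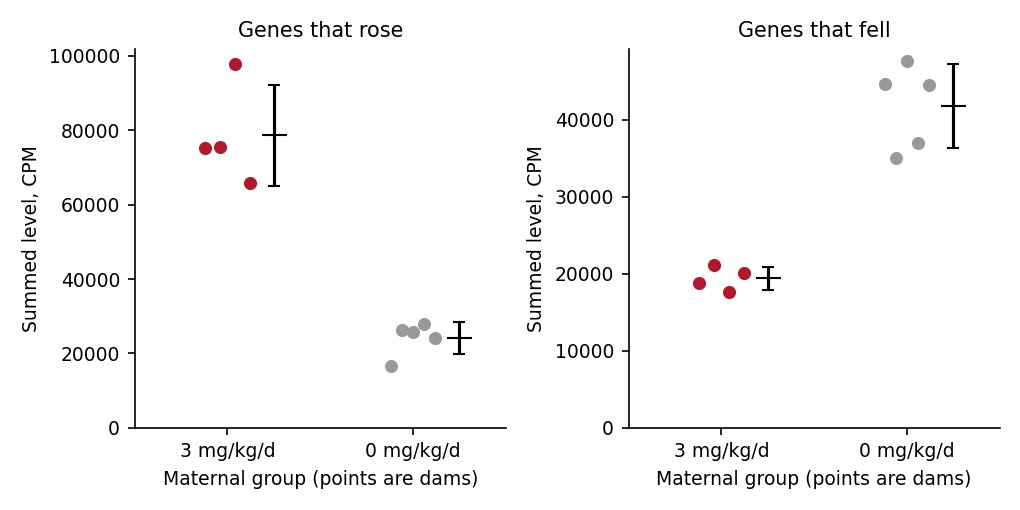
Summed level in CPM (y axes, from 0) of the 192 genes that rose (left) and the 89 that fell (right) in each maternal library, with 3 mg/kg/d to the left of 0 mg/kg/d (x axes); points are dams and the bar beside them is the mean ± SD. All 4 dosed dams lie above the 5 controls for the rises and below them for the falls, a description of the libraries that chose the genes.

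Single dams separated the groups for most called genes. Every 3 mg/kg/d dam lay beyond every control for 163 of the 192 rises and 70 of the 89 falls. Over all genes tested 569 had groups that did not overlap, which is 5.36%. The same libraries chose the called genes, so their separation follows largely from the calls and is a description.

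The gene with the largest rise was ENSRNOG00000055221, whose function the sources used here do not give. It had 377, 326, 718 and 435 CPM in the 4 dams at 3 mg/kg/d (2274, 2275, 2281 and 2282), against 1, 1.74, 1.83, 2.05 and 1.79 CPM in the 5 controls (2263, 2264, 2265, 2278 and 2280). Every dosed dam was far above every control, and the control values are near the lower end of what was measured. The log2 fold change was 8.11 ± 0.47 (SE), with an edgeR adjusted p of 6.1e-11. ENSRNOG00000016222 was lower in abundance and also separated fully. It had 16.4, 32.2, 20.5 and 22.5 CPM at 3 mg/kg/d, against 0.819, 1.55, 0.386, 0.767 and 1.98 CPM in controls. Its log2 fold change was 4.36 ± 0.52 (SE), with an edgeR adjusted p of 1.18e-05.

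The gene with the largest fall was ENSRNOG00000057702. It had 4.24, 14.2, 3.9 and 8.16 CPM at 3 mg/kg/d, against 165, 37.9, 137, 50.8 and 28.1 CPM in controls. The groups do not overlap, and the controls spread widely, with dams 2263 and 2265 far above the other 3. The log2 fold change was -3.46 ± 0.81 (SE), with an edgeR adjusted p of 0.0262. That call was lost without dam 2263 (adjusted p = 0.0604), 2265 (0.0502), 2274 (0.0863), 2281 (0.104) or 2282 (0.0612) in the same edgeR fit, and in the first run of dam numbers alone (0.283, with 2 dosed dams and 3 controls). ENSRNOG00000008210 had 0.883, 2.13, 4.9 and 2.33 CPM at 3 mg/kg/d, against 8.1, 15.5, 14, 16.4 and 16.2 CPM in controls. Here too every dosed dam was below every control, and dam 2263 was the lowest control. The log2 fold change was -2.46 ± 0.65 (SE), with an edgeR adjusted p of 0.0489. Leaving out any dam of either group but 2281 ended this call, with edgeR adjusted p between 0.0566 (without 2263) and 0.123 (without 2274); the other values were 0.0693 without 2264, 0.0672 without 2265, 0.119 without 2275, 0.0626 without 2278, 0.0801 without 2280 and 0.096 without 2282.

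The number of called genes changed with the libraries that entered the fit. Without dam 2263 it was 221 (167 rises and 54 falls), and without both 2263 and 2282 it was 234 (177 and 57). It was 176 without dam 2281, and 136 when only the 3 and 0 mg/kg/d libraries were filtered, scaled and fitted, which left 9682 genes tested, 274 of the 281 among them. The dam numbers form 2 runs, 2263 to 2277 and 2278 to 2288, which the labels do not call batches, and each run holds 2 dams at 3 mg/kg/d. With 3 controls the first run alone called 25 genes, and with 2 controls the second run alone called 87; 13 genes were called in both. The sign was shared with the other run for 21 of the 25 genes and for 86 of the 87, against 65.3% of the 9408 genes that both runs tested. All 25 genes of the first run were rises, and the second run had 74 rises and 13 falls. Within the first and the second run the log2 fold change was 7.85 and 8.23 for ENSRNOG00000055221, 4.71 and 3.92 for ENSRNOG00000016222, -3.62 and -2.7 for ENSRNOG00000057702, and -3.07 and -2.16 for ENSRNOG00000008210.

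The fetal livers of the same litters were measured in separate libraries, so they show the genes that moved in the dams in another tissue sample. Among the maternal rises tested in fetal liver, 104 of 186 rose past the threshold there as well and 1 fell past it. Of all genes tested in fetal liver, 3.98% rose and 3.1% fell past it. Among the maternal falls, 19 of 83 fell past the threshold in fetal liver and 3 rose past it. The shared rises were 55.9% of the maternal rises and 25.2% of the fetal rises tested in both, and the shared falls were 22.9% of the maternal falls and 5.92% of the fetal ones. In fetal liver the median log2 fold change was 0.85 for the maternal rises, -0.25 for the maternal falls and -0.02 for all genes. The 12 largest maternal rises with at least 5 CPM, from 11.7- to 276-fold, all rose past the threshold in fetal liver. Of the 12 largest maternal falls 9 could be tested there. Past the threshold 3 of these fell, and 6 had a negative estimate. Of all 10201 genes tested in both stages, 5400 had a negative fetal estimate, so nothing is read from those 6.

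The 4 genes had the following levels in fetal liver. ENSRNOG00000055221 averaged 756 ± 64.8 CPM in fetal liver at 3 mg/kg/d (SD, n = 4), against 8.88 ± 3.93 CPM in fetal controls (SD, n = 5), a log2 fold change of 6.41 ± 0.34 (SE; edgeR adjusted p = 9.18e-11). ENSRNOG00000016222 averaged 98 ± 27.1 CPM in fetal liver at 3 mg/kg/d (SD, n = 4), against 22.7 ± 8.8 CPM in fetal controls (SD, n = 5). The dosed dams averaged 22.9 ± 6.7 CPM (SD, n = 4). Maternal and fetal libraries were filtered and scaled apart, so levels of the stages are only set side by side. ENSRNOG00000057702 did not exceed 0.253 CPM in fetal liver at 3 mg/kg/d or 0.302 CPM in fetal controls, and ENSRNOG00000008210 did not exceed 0.544 or 0.795 CPM there. Both falling genes were thus measured almost entirely in the dams.

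The difference between the maternal and the fetal response was tested directly, with each dam and her litter as a pair. It passed the threshold for 62 of 11140 genes (0.557%), of which 30 had a higher and 32 a lower log2 response in the dams; 1173 genes had an unadjusted p under 0.05. The maternal and fetal estimates had opposite signs in 37 of the 60 genes tested in both stages. In 34 of the 62 only the fetal comparison called the gene, in 11 only the maternal one, in 13 both and in 4 neither. The same libraries chose these 62 genes by that difference, which favours opposite signs. The signs and the split of calls are therefore descriptions. Among the maternal rises 17 of 189 passed, 12 of them higher in the dams, and among the maternal falls 7 of 89 passed, 6 of them lower in the dams; since the same maternal libraries chose those genes, nothing is read from these counts. ENSRNOG00000016222 had a log2 response 2.26 ± 0.41 (SE) higher in the dams than in the fetuses (edgeR adjusted p = 0.0205). For ENSRNOG00000055221 the difference was 1.57 ± 0.36 (SE; edgeR adjusted p = 0.0757), with a 95% interval from 0.86 to 2.28. The same maternal libraries chose both genes as the largest rises, which favours a higher response in the dams. Both differences are therefore descriptions. The count of 62 genes rested on single litters throughout. It was 36 without dam 2263, 121 without 2264, 34 without 2265, 25 without 2274, 29 without 2275, 40 without 2278, 38 without 2280, 37 without 2281 and 38 without 2282.

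Genes far apart between the stages were also counted among the called genes. In the PFO4DA controls, which are other animals, 4.64% of the genes tested were at least 4-fold higher in maternal than in fetal liver (means of CPM + 0.5). These maternal-enriched genes made up 17 of the 192 rises (8.85%) and 17 of the 89 falls (19.1%). Genes at least 4-fold higher in fetal liver were 4.63% of the genes tested, with 12 rises (6.25%) and 1 fall (1.12%). The remaining 163 rises and 71 falls were in neither class, which held 90.7% of the genes tested.

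Across PFO5DoA doses the genes chosen at 3 mg/kg/d were followed in the same fit, where every dose shares the 5 controls, so the values are set side by side and no agreement is read from them. The median log2 fold change of the 192 rises was 0.37 at 0.3, 0.71 at 1, 1.28 at 3, 1.63 at 10 and 1.69 at 30 mg/kg/d. That of the 89 falls was -0.31, -0.52, -1, -1.2 and -1.49 at the same doses. The median over all genes lay between -0.07 and -0.02 throughout. Differences between neighbouring doses need no control library, but the 3 mg/kg/d libraries that chose the genes enter each difference given here. The runs of dam numbers are also uneven over the doses. All dams at 0.3 and 1 mg/kg/d are in the first run and all at 30 mg/kg/d in the second, while 0, 3 and 10 mg/kg/d span both, so dose and run are partly confounded in this series. At 3 against 1 mg/kg/d 9 of 10615 genes passed (0.0848%), and these 9 were among the 192 rises. All were higher at 3, by 1.04 to 2.65 on the log2 scale. ENSRNOG00000055221 had the largest of these differences, 2.65 ± 0.44 (SE; edgeR adjusted p = 0.0106). With the run as a covariate 8 genes passed, all among the 9, and this gene's difference was 2.47 ± 0.46 (SE; edgeR adjusted p = 0.0412). Within the first run alone, with 2 dams at 3 and 3 dams at 1 mg/kg/d, edgeR called 0 genes, where the unadjusted p was under 0.05 for 376; all 9 had a positive difference there, and that of ENSRNOG00000055221 was 2.24 ± 0.56 (SE; edgeR adjusted p = 0.672). At 10 against 3 mg/kg/d 2 genes passed (0.0188%), both higher at 10 and neither above a mean of 6.92 CPM there. The same 2 genes passed with the run as a covariate, and 0 passed in edgeR within the first run alone, where the unadjusted p was under 0.05 for 301 genes. Both small counts depended on which dams entered the fit. At 3 against 1 mg/kg/d edgeR still called 9 genes without dam 2275 and 8 without 2282. At 10 against 3 mg/kg/d it still called 2 without 2283 or 2284. Other dams changed the counts more. Without dam 2271 or 2273 edgeR called 0 genes at 3 against 1 mg/kg/d, where the unadjusted p was under 0.05 for 608 and 435 genes; without 2272 or 2281 it called 1 and without 2274 it called 4, and DESeq2 on all dams called 33. At 10 against 3 mg/kg/d edgeR called 0 genes without dam 2274 or 2281, where the unadjusted p was under 0.05 for 508 and 688 genes, 1 without 2275, 2276 or 2282 and 4 without 2277, and DESeq2 on all dams called 9.

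The largest rise had a graded level over the PFO5DoA doses. ENSRNOG00000055221 averaged 1.68 ± 0.399 CPM in controls (SD, n = 5), 4.2 ± 3.28 at 0.3 (n = 3), 74.2 ± 46.6 at 1 (n = 3), 464 ± 175 at 3 (n = 4), 816 ± 116 at 10 (n = 4) and 1170 ± 265 CPM at 30 mg/kg/d (n = 4). The single dams ranged from 326 to 718 CPM at 3 and from 26.9 to 120 CPM at 1 mg/kg/d, with no overlap. At 0.3 mg/kg/d they ranged from 1.59 to 7.88 CPM, overlapping the controls at 1 to 2.05 CPM. The difference between 10 and 3 mg/kg/d, 0.81 ± 0.37 (SE, log2), did not pass (edgeR adjusted p = 0.777; 95% interval 0.09 to 1.54). ENSRNOG00000016222 was not graded throughout. It averaged 1.1 ± 0.647 CPM in controls (SD, n = 5), 2.29 ± 1.22 at 0.3 and 3.72 ± 1.81 at 1 mg/kg/d (n = 3 each). At 3, 10 and 30 mg/kg/d it averaged 22.9 ± 6.7, 30.2 ± 4.82 and 18.5 ± 17.4 CPM (n = 4 each). Single dams at 30 mg/kg/d ranged from 8.26 to 44.5 CPM. ENSRNOG00000057702 averaged 83.8 ± 62.7 CPM in controls (SD, n = 5), 34.4 ± 25 at 0.3 (n = 3), 20.4 ± 6.56 at 1 (n = 3), 7.62 ± 4.79 at 3 (n = 4), 5.94 ± 3.08 at 10 (n = 4) and 3.3 ± 4.52 CPM at 30 mg/kg/d (n = 4). Neighbouring dose groups of this gene overlap from dam to dam at every step except 3 against 1 mg/kg/d, where the ranges were 3.9 to 14.2 CPM and 14.4 to 27.4 CPM. That difference, -1.43 ± 0.84 (SE, log2), did not pass (edgeR adjusted p = 0.889; 95% interval -3.07 to 0.21).

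**Figure D4:**
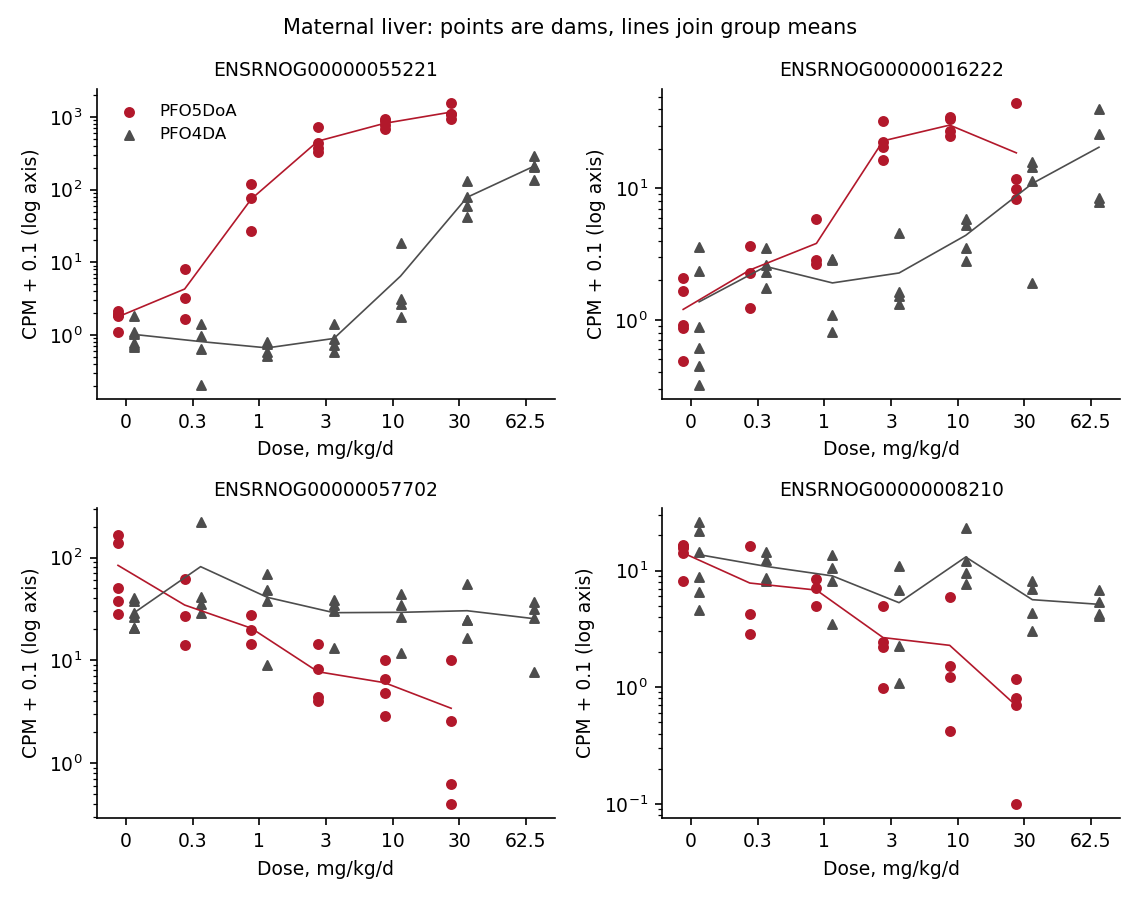
Level in maternal liver, as CPM + 0.1 on a log y axis, of the 4 genes given by ID at each dose in mg/kg/d (x axis, evenly spaced categories); circles are PFO5DoA dams, triangles PFO4DA dams, and lines join group means. ENSRNOG00000055221 reached a mean of 464 CPM at 3 mg/kg/d PFO5DoA and 78.4 CPM at 30 mg/kg/d PFO4DA, while ENSRNOG00000057702 had a mean of 7.62 CPM at 3 mg/kg/d PFO5DoA and 25.3 CPM at 62.5 mg/kg/d PFO4DA.

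PFO4DA offers the same genes in other dams with other controls. At the matched dose of 3 mg/kg/d the 192 genes that rose with PFO5DoA had a median log2 fold change of 0.09 with PFO4DA (183 tested), and the 89 genes that fell had -0.05. Tested directly, the maternal response at 3 mg/kg/d differed between PFO5DoA and PFO4DA for 71 of 10192 genes (0.697%), the only pair of compounds in the study. Each compound has its own dams, controls and table, so compound and series of dams cannot be told apart here. The log2 response to PFO5DoA was higher in 60 of the 71 and lower in 11, with a median size of difference of 1.84, and 27 of the 71 differed at least 4-fold. Among the PFO5DoA rises 59 of 187 passed as higher, and among the falls 10 of 89 passed as lower; the PFO5DoA libraries that chose these genes also enter this test, so nothing is read from that. The count was 75 without dam 2263, 46 without dam 2281 and 45 without PFO4DA dam 2315.

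At 3 mg/kg/d ENSRNOG00000055221 averaged 464 ± 175 CPM with PFO5DoA and 0.798 ± 0.363 CPM with PFO4DA (SD, n = 4 each). The PFO4DA dams ranged from 0.476 to 1.31 CPM, overlapping the 0.579 to 1.73 CPM of the PFO4DA controls. The response to PFO5DoA exceeded that to PFO4DA by 8.33 ± 0.48 (SE, log2; edgeR adjusted p = 1.07e-10). ENSRNOG00000016222 averaged 22.9 ± 6.7 CPM with PFO5DoA and 2.17 ± 1.56 CPM with PFO4DA (SD, n = 4 each), and its difference of 3.61 ± 0.83 (SE, log2) did not pass (edgeR adjusted p = 0.0507; 95% interval 1.97 to 5.24). ENSRNOG00000057702 averaged 7.62 ± 4.79 CPM with PFO5DoA and 28.9 ± 11.1 CPM with PFO4DA (SD, n = 4 each), a difference in log2 response of -3.46 ± 0.74 (SE; edgeR adjusted p = 0.0376). Its controls averaged 83.8 ± 62.7 CPM for PFO5DoA (SD, n = 5) and 28.8 ± 8.41 CPM for PFO4DA (SD, n = 6). For ENSRNOG00000008210 the difference was -1.09 ± 0.86 (SE, log2; edgeR adjusted p = 0.732), with a 95% interval from -2.79 to 0.6. The PFO5DoA libraries that chose these 4 genes also enter these differences, which favours a larger response to PFO5DoA. The differences are therefore descriptions.

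The same genes were also followed over the PFO4DA doses. The median log2 fold change of the rises was 0.08 at 0.3, 0.03 at 1, 0.09 at 3, 0.26 at 10, 0.52 at 30 and 0.82 at 62.5 mg/kg/d, and that of the falls was 0.05, 0.01, -0.05, -0.09, -0.26 and -0.31. The median over all genes was between 0 and 0.02. At 62.5 mg/kg/d PFO4DA 171 of 183 rises had a higher and 78 of 89 falls a lower estimate than its controls. Of all 10153 genes tested with both compounds, 5060 had a higher and 5093 a lower estimate at that dose. There 95 of the 183 rises passed the threshold (1.8% of all genes tested rose) and 8 of the 89 falls did (0.653% fell), none in the opposite direction. The 95 were 51.9% of the PFO5DoA rises and 51.4% of the PFO4DA rises, and the 8 were 8.99% of the PFO5DoA falls and 11.9% of the PFO4DA falls. Of the 12 largest rises 10 also rose past the threshold at 62.5 mg/kg/d PFO4DA, and all 12 had a positive estimate. Of the 12 largest falls 2 fell past the threshold, and 11 had a negative estimate. The doses differ, so these are values side by side and not a comparison of the compounds. ENSRNOG00000055221 averaged 6.36 ± 7.91 CPM at 10, 78.4 ± 38.8 at 30 and 209 ± 61.3 CPM at 62.5 mg/kg/d PFO4DA (SD, n = 4 each), with 0.921 ± 0.431 CPM in its controls (SD, n = 6). ENSRNOG00000057702 averaged 25.3 ± 12.7 CPM at 62.5 mg/kg/d (SD, n = 4), with a log2 fold change of -0.19 ± 0.58 (SE; edgeR adjusted p = 0.925).

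**Figure D5:**
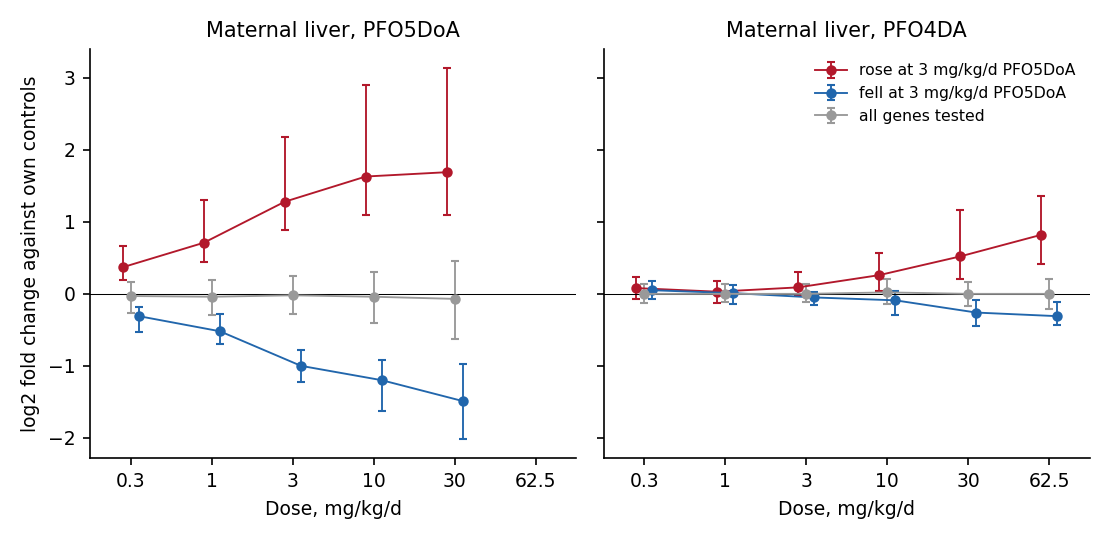
Median log2 fold change against each chemical's own controls (y axis) of the 192 genes that rose (red), the 89 that fell (blue) and all genes tested (grey), by dose in mg/kg/d (x axis, evenly spaced categories), for PFO5DoA (left) and PFO4DA (right); bars span the interquartile range of the genes. With PFO5DoA the red median is 1.28 and the blue -1 at 3 mg/kg/d, where the genes were chosen; with PFO4DA they are 0.09 and -0.05 at 3 and 0.82 and -0.31 at 62.5 mg/kg/d.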

How the data were processed

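The authors deposited 1 table of estimated counts per chemical, with 20311 genes in rows and dam-numbered columns; 11.6% of PFO5DoA values are not whole (tolerance 1e-06), and how they arose is not given in the sources used here. Per the submitters' processing notes, Partek, STAR 2.7.8a, DESeq2 and the build mRatBN7.2 were used, with no roles given. Values were rounded to whole numbers. Maternal columns were chosen by correlation, as described above, dam 2279 was dropped, and the 0.1 mg/kg/d group (2 dams) was left out. Genes were filtered with filterByExpr, scaled by TMM and tested with edgeR 4.0.16 (R 4.3.3; robust glmQLFit, glmQLFTest) over all maternal PFO5DoA doses, with Benjamini-Hochberg adjustment over all genes tested and a threshold of 0.05. The maternal minus fetal response was fitted with dam as block and stage by dose. The PFO5DoA minus PFO4DA response was fitted as table by dose over both tables. The SE of a log2 fold change is its absolute value divided by the square root of the quasi-likelihood F value. A 95% interval is the estimate ± 1.96 SE, which is approximate and can be narrower than the edgeR test implies. CPM are counts per 1000000 counts of the deposited estimated counts per library; levels given per gene, per group and as sums use TMM-scaled library totals. Alternatives used DESeq2 1.42.0, limma 3.58.1, other scalings, filters and sets of dams; the scripts were tested on simulated data.

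The members, lists and comparisons were chosen with earlier results of these data known. The 35 gene and marker lists, and the exact permutation test of the summed markers, were not used because no ID matched a name. Genes given by ID are the 2 largest rises and the 2 largest falls among called genes with a mean of at least 5 CPM in either group and every 3 mg/kg/d dam on one side of the control mean; the rule took the 12 largest each way. No 2 libraries of a group agreed within sampling noise (lowest chi-square per degree of freedom 33.3 over 16 pairs). The dams are separate animals.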

Additional observations from a re-analysis of the deposited data

Results flagged for a closer look

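Over 22 sets of dams tested for a single far value, 3 had one, and chance flags about 1 in 20 such sets. At 3 mg/kg/d the maternal library of dam 2282 had 7133025 counts, far below the other 3. Among the controls dam 2263 lay far below the rest in its mean correlation with the other 8 maternal libraries (0.921) and in ENSRNOG00000008210 (8.1 CPM). The response at 3 mg/kg/d PFO5DoA differed between maternal and fetal liver in 62 genes, by the stage-by-dose term. The maternal response at 3 mg/kg/d differed between PFO5DoA and PFO4DA in 71 genes, by the table-by-dose term.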

How the results depend on the processing

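The 281 called genes kept their sign under every alternative in which they could be tested. Every alternative reused libraries that chose these genes, so the kept sign was largely given in advance and nothing is read from it. The number of called genes was 489 with DESeq2 and 136 with the 3 and 0 mg/kg/d libraries alone (107 rises and 29 falls). It was 25 in the first and 87 in the second run of dam numbers, and 171 with a minimum fold of 2. Leaving out 1 dam gave 176 (without 2281) to 377 (without 2278). It stayed within 1.5 times with limma (294), RLE scaling (289), no filter on low counts (245), without 30 mg/kg/d (314), with the run of dam numbers as a covariate (297), and, chosen after seeing the data, with dam 2279 kept (343), without dams 2263 and 2282 (234) or with 2263 out and 2279 kept (302). A replicate block from the numbers in the titles gave 276. Same-numbered dams had correlations of deviations of -0.066, -0.165, 0.208 and 0.086, and 1 of 4 dosed dams correlated best with its own number. So few dams can neither show nor exclude a pairing by number, and the main fit used none. The maternal minus fetal count of 62 was 159 with DESeq2, 335 with no filter, and 25 to 121 leaving out 1 dam. The PFO5DoA minus PFO4DA count of 71 was 133 with DESeq2 and 45 to 78 leaving out 1 dam. The count of 2 at 10 against 3 mg/kg/d was 9 with DESeq2 and 0 to 4 leaving out 1 dam (0 without dam 2274 or 2281, 508 and 688 genes having an unadjusted p under 0.05 in edgeR), and the count of 9 at 3 against 1 mg/kg/d was 33 with DESeq2 and 0 to 9 leaving out 1 dam (0 without dam 2271 or 2273, with 608 and 435). In the first run of dam numbers alone, chosen after seeing the data, both counts were 0 (301 and 376 genes having an unadjusted p under 0.05 in edgeR), and with the run as a covariate they were 2 and 8. The cause of these shifts was not tested. Both rises given by ID kept their call throughout; the larger fall lost it in 7 of 22 alternatives (edgeR, limma or DESeq2 adjusted p 0.000383 to 0.283) and ENSRNOG00000008210 in 12 (0.00406 to 0.123).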
